A study of Mus musculus with 38 samples.

Results

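Parietal endoderm is the extraembryonic layer that lines the inner face of the trophoblast and lays down the thick basement membrane of the early mouse conceptus, and it descends from the primitive endoderm, whose counterpart in culture is the extraembryonic endoderm (XEN) cell. The genes described are Plat, Thbd, Fst, Pth1r, Srgn, Habp2, Chst15, Emb, Flrt3 and Cryab, 10 of the 23481 genes in the bulk expression table. They were named as XEN-specific and were thus chosen by their bulk values in sorted XEN-like over ectoderm-like cells, so their values in that contrast are given as a description and without a test. Counts of members in other contrasts with XEN-like cells share this choice and are a description too. All 10 had at least 1 unique molecular identifier (UMI, a tag that counts each captured mRNA molecule once) in the bulk libraries. Thbd, whose highest bulk library held 34 UMIs, did not pass the filter on low counts in the fit of the sorted cells, so 9 of the 10 entered it.

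E14 mouse embryonic stem cells (mESCs) were kept in 2i medium with LIF and then exposed without break to 0.25 µM all-trans retinoic acid (RA) in N2B27 medium for up to 96 h. Bulk RNA was counted in 25 libraries: 2 of mESCs, 1 at each of 9 RA time points from 6 h to 96 h, 8 of cells sorted at 48 h and 72 h, 4 of cells sorted at 96 h, and 2 of cultures grown from sorted cells. Single cells were measured by SCRB-seq, a plate-based UMI method, at 9 time points with 1 plate each, and by SMART-seq2, a full-length method, with 1 sample each of mESCs and of cells at 12 h, 24 h and 48 h of RA. Bulk library totals ranged from 1063830 to 2459480 UMIs.

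The sorts used 2 surface proteins, PDGFRA, an early marker of primitive endoderm, and CD24, which is high on neuroectoderm. At 48 h, PDGFRA-negative cells were split into quartiles of CD24 signal. At 72 h, PDGFRA-negative cells were split into terciles of CD24, and a PDGFRA+/CD24- population was collected beside them. At 96 h, ectoderm-like cells were PDGFRA-/CD24+ and XEN-like cells PDGFRA+/CD24-, each with 2 libraries from biological replicates. The ectoderm-like culture was grown attached to poly-D-lysine and laminin in N2B27 with EGF and FGF2 for 5 passages, and the XEN-like culture as floating aggregates in the same medium for 3 weeks. All samples therefore come from 1 cell line, and all but the mESCs had been exposed to RA. Beyond mESCs and the cells sorted at 96 h each population is 1 library; ratios of such libraries, or of quartiles or terciles summed, carry exact 95% intervals, which cover counting error only, and no p-value.

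The 10 genes fall into 4 kinds of product. Plat, Thbd and Habp2 belong to the plasminogen and clotting systems. Plat is tissue plasminogen activator, a secreted protease that turns plasminogen into plasmin and a classical product of parietal endoderm. Thbd is thrombomodulin, the membrane receptor that turns thrombin towards protein C activation, and Habp2 is a hyaluronan-binding serine protease. Fst (follistatin, a secreted protein that binds activin) and Pth1r (the G protein coupled receptor of parathyroid hormone and its related peptide) belong to signalling; the related peptide and its receptor are known to act in early parietal endoderm. Srgn (the core protein of the proteoglycan serglycin) and Chst15 (a sulfotransferase that makes the highly sulfated chondroitin sulfate E) belong to glycosaminoglycan biology. Emb (embigin, an immunoglobulin-family partner of monocarboxylate transporters), Flrt3 (a leucine-rich repeat adhesion protein that binds Unc5 receptors and latrophilins) and Cryab (the small heat shock protein alphaB-crystallin) act at the cell surface and in protein folding.

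In the reference annotation (GENCODE, build GRCm38) all 10 are protein coding. Plat lies on chr8:22757727-22782844, Thbd on chr2:148404466-148408188, Fst on chr13:114452290-114458951, Pth1r on chr9:110722085-110747145 and Srgn on chr10:62493833-62527451. Habp2 lies on chr19:56287137-56320822, Chst15 on chr7:132235780-132317228, Emb on chr13:117208536-117274415, Flrt3 on chr2:140650914-140671469 and Cryab on chr9:50751325-50756636. RefSeq promoters of build GRCm38.p6 matched 6 of the 10 genes, Flrt3, Chst15, Pth1r, Srgn, Emb and Habp2, with 10 start sites in all; Plat, Thbd, Fst and Cryab were not matched. The 250 bases before a start are shown for the 4 genes with a start whose window overlapped no exon of the gene; Pth1r has 2 such starts, and the one with a motif match is shown, the other having none. They set Flrt3, which came up in both lineages, beside Pth1r, Chst15 and Habp2, which stayed mostly with PDGFRA. Each is written 5′ to 3′ on the strand of its gene, and capitals mark a match to GATAA, the core that GATA factors bind, read here on the opposite strand as TTATC.
Flrt3, chr2:140671477-140671726, minus strand: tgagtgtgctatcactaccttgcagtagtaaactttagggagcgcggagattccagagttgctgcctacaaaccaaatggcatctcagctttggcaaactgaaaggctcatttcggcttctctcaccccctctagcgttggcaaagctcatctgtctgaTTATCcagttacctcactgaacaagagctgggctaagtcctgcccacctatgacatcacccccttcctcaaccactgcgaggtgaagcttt
Pth1r, chr9:110743687-110743936, minus strand: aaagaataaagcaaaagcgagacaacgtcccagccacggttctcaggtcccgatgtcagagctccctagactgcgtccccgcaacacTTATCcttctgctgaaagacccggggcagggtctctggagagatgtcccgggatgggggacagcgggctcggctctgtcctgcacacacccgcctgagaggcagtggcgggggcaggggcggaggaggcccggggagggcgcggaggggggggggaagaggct
Chst15, chr7:132317229-132317478, minus strand: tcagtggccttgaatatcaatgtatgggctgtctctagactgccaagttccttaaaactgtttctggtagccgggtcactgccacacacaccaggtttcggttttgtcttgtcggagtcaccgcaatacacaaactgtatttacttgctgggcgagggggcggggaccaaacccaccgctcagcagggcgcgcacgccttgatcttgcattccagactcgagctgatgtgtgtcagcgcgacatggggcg
Habp2, chr19:56287662-56287911, plus strand: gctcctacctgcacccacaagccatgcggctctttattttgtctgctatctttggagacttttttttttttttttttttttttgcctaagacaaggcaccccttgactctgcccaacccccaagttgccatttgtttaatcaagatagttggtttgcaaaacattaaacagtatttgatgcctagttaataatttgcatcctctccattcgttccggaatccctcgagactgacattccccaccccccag

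Over the 250 bases before all 10 member starts, on both strands, 5 motifs were searched: GATAA (GATA factors), ACAAT (SOX factors), AGGTCA (the half-site of retinoid and other nuclear receptors), TGACTCA (AP-1) and TGACGTCA (the cAMP response element). GATAA stood in 2 of the 10 windows, at positions -91 to -87 of the Flrt3 start and -163 to -159 of the Pth1r start shown, and 22.6% of all 32817 promoter windows of this length held it. ACAAT stood in 1 of the 10, that of Srgn, against 27.7% of all windows. The nuclear receptor, AP-1 and cAMP motifs were in none of the member windows and in 14.03%, 4.46% and 1.55% of all windows. The member windows thus held these letters at most as often as other promoters did, and a match is only a description of the sequence.

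The members differed in where they started in undifferentiated mESCs. Chst15 and Habp2 had 0 UMIs in both mESC libraries, and Thbd had 2 and 0. Plat stood at 2.19 and 2.18 CPM (UMIs of the gene scaled to a common library total), Pth1r at 0.437 and 1.74, Emb at 5.25 and 8.71, Flrt3 at 5.25 and 6.96, and Srgn at 9.19 and 9.14. Cryab differed between the 2 mESC libraries, at 19.2 and 2.18 CPM. Fst stood at 3.94 and 10.0 CPM in mESCs, in the range of Emb, Flrt3, Srgn and Cryab. It was then nearly absent, with 0 to 2 UMIs in each bulk library from 6 h to 48 h, and reached 11.4 CPM at 60 h, 49.6 at 72 h, 124 at 84 h and 173 at 96 h. SCRB-seq gave the same course in single cells: Fst had a UMI in 49 of 282 mESCs (17.4%), in 2 of 277 cells at 48 h (0.722%) and in 68 of 137 cells at 96 h (49.6%). Its level there went from 0.425 UMIs per 10000 in mESCs to 0.0125 at 48 h and 3.47 at 96 h. In SMART-seq2, 31.7% of 82 mESCs had Fst above 1 normalised RPKM, against 10.5% of 86 cells at 12 h, 5.62% of 89 cells at 24 h and 7.32% of 82 cells at 48 h.

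**Figure D1:**
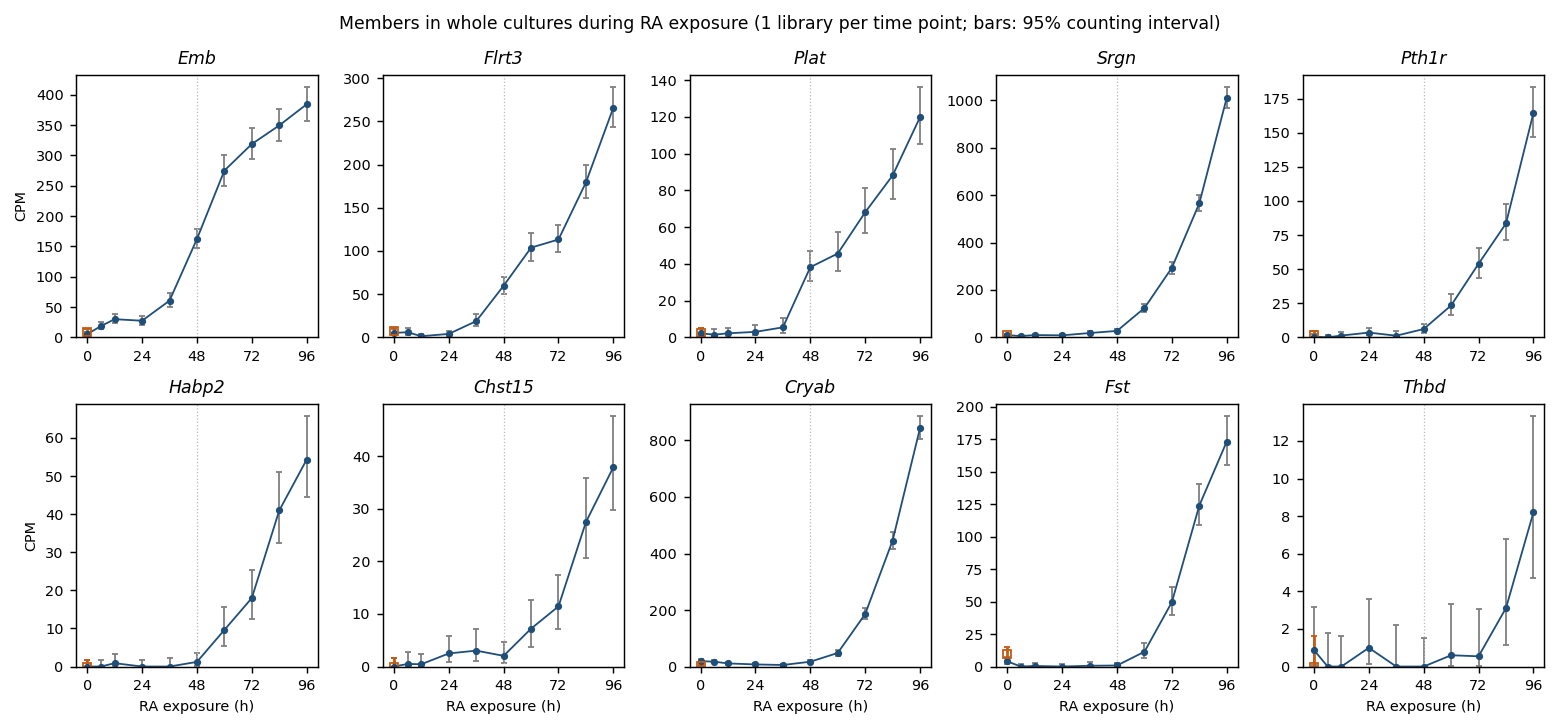
CPM of each gene in bulk RNA against hours of RA, 1 library per time point, with exact 95% counting intervals as bars; the open orange square is the second mESC library and the dotted line marks 48 h. Emb leaves its mESC level by 12 h and Flrt3 by 36 h, Fst dips before it climbs from 60 h, and Thbd stays low until 96 h.

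The genes came up at different times under RA. The first time point from which each later bulk library stayed above both mESC libraries, with no overlap of their counting intervals, was 12 h for Emb, 36 h for Flrt3 and 48 h for Plat and Srgn. It was 60 h for Pth1r, Habp2, Chst15 and Cryab, 72 h for Fst and 96 h for Thbd. By the same rule Pdgfra, the gene of the sorting marker, was above mESCs from 48 h. So were Gata4, Gata6, Sox17, Sox7, Dab2, Col4a1, Col4a2 and Lama1 among the primitive and parietal endoderm markers. Stra6 of that list was above from 12 h, and Lamb1 and Serpinh1 from 36 h. Sparc and Lamc1 followed from 60 h and Nid1 from 96 h, so the markers had no single onset. Thus 2 of the 10 members, Emb and Flrt3, preceded Pdgfra by this rule, 2 coincided with it and 6 came after it. The rule is stricter for genes with few UMIs or a higher mESC level. Habp2 and Chst15 had 3 and 5 UMIs at 48 h, and Cryab stood at 19.2 CPM in mESC replicate 1. An onset at or before 48 h was found for 4 of the 10 members and for 5.52% of the 12017 genes examined. Against the first mESC library alone Emb moved to 6 h and Pth1r to 48 h, against the second alone, an alternative chosen after seeing the data, Cryab moved to 48 h, and with TMM scaling Flrt3 moved to 48 h.

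Emb, the transporter partner, had the longest climb. It went from 5.25 and 8.71 CPM in mESCs to 18.6 at 6 h, 29.96 at 12 h, 60.5 at 36 h, 162 at 48 h, 275 at 60 h and 384 at 96 h, and by 60 h it had passed 50% of its 96 h level. Flrt3 first dipped, to 1.32 CPM at 12 h, and then went through 18.8 at 36 h, 59.8 at 48 h and 104 at 60 h to 266 at 96 h. Plat was at 5.45 CPM at 36 h and 38.2 at 48 h, a step within 12 h, and ended at 120. All 3 were thus several-fold above their mESC level by 48 h. Srgn climbed later and over a wider range, from 27.2 CPM at 48 h to 124 at 60 h, 294 at 72 h, 566 at 84 h and 1011 at 96 h. Cryab went from 17.1 CPM at 48 h to 186 at 72 h and 844 at 96 h, and Pth1r from 6.10 to 53.9 and 165. Habp2 had 3 UMIs at 48 h and 106 at 96 h, and Chst15 5 and 74. Thbd never exceeded 1 UMI from 36 h to 72 h and had 6 at 84 h and 16 at 96 h. Across the 96 h, the bulk level was 151-fold that of mESCs for Pth1r, 110-fold for Srgn, 78.95-fold for Cryab, 55.05-fold for Emb, 54.96-fold for Plat, 43.5-fold for Flrt3, 24.8-fold for Fst and 18.8-fold for Thbd. Against the limit of 3 counts over both mESC libraries, Habp2 was at least 82.99-fold and Chst15 at least 57.9-fold higher. In bulk RNA a larger share of expressing cells and more RNA per cell cannot be told apart.

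The 48 h quartiles show which members were on in PDGFRA-negative cells before the gates parted. Of the 7 members with at least 20 UMIs in the quartiles and mESCs together, 5 lay above mESCs, against 26.2% of the 10185 genes compared. Emb was 19.2-fold, Plat 12.7-fold, Flrt3 6.85-fold and Srgn 1.57-fold (interval 1.07 to 2.35) its mESC level, and Chst15 at least 6.89-fold. Fst, at 0.0258 of its mESC level with 1 UMI in the 4 quartile libraries, lay below against either mESC library. Cryab stood at 0.472 of both mESC libraries, but at 0.262 of replicate 1 and 2.32 times replicate 2, and Srgn spanned 1 against either alone; these were chosen after seeing the data. Pth1r had 1 to 6 UMIs in a quartile library, Habp2 at most 1 and Thbd 0.

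Across the quartiles Plat and Emb went with CD24. Plat stood at 14.7, 22.9, 22.6 and 48.0 CPM from quartile 1 to quartile 4, and Emb at 95.0, 114, 147 and 182. Cd24a itself went from 19.4 to 127 CPM in the same order, so quartile 1 was the CD24-low end by RNA too. Quartile 4 held 3.26 times the Plat (interval 2.01 to 5.51) and 1.91 times the Emb (1.56 to 2.36) of quartile 1. Flrt3, at 38.8, 35.7, 51.7 and 43.6 CPM, had a ratio of 1.12 whose interval spanned 1. Chst15 went the other way, with 11, 9, 4 and 1 UMIs, a ratio of 0.0858 (0.00199 to 0.591). Plat, a named parietal endoderm product, was thus highest at 48 h in the PDGFRA-negative cells with the most CD24.

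SMART-seq2 cells at 48 h gave the same picture for Plat. Among 82 cells, the 10 with the highest Pdgfra (from 11.1 normalised RPKM upwards; the next cell had 1.04) were set beside the 29 others with the highest Cd24a. Plat averaged 34.8 normalised RPKM in the Pdgfra-high and 99.1 in the Cd24-high cells, and was above 1 in 6 of 10 and in 24 of 29 of them. Srgn was the clearest on the Pdgfra side, at 136 against 1.89, and above 1 in 7 of 10 cells (70%, exact interval 34.8 to 93.3) against 2 of 29 (6.90%, 0.846 to 22.8). Emb was above 1 in 10 of 10 and 29 of 29 of these cells, with means of 337 and 216, and Flrt3 in 10 of 10 and 27 of 29, with means of 154 and 99.6. Both were therefore shared by the 2 kinds of cell at 48 h. Pth1r (9.03 against 11.1) and Fst (0 against 0.548) were not higher in the Pdgfra-high cells, and Habp2 and Thbd each rested on 1 of the 10 cells. In all, 7 of the 10 members had the higher mean in Pdgfra-high cells, against 44.2% of 15511 genes; when the 7 cells with Pdgfra above 1 and Cd24a below its median were used instead, it was 5 of 10. The cells come from 1 sample, so no test between the classes was made.

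**Figure D2:**
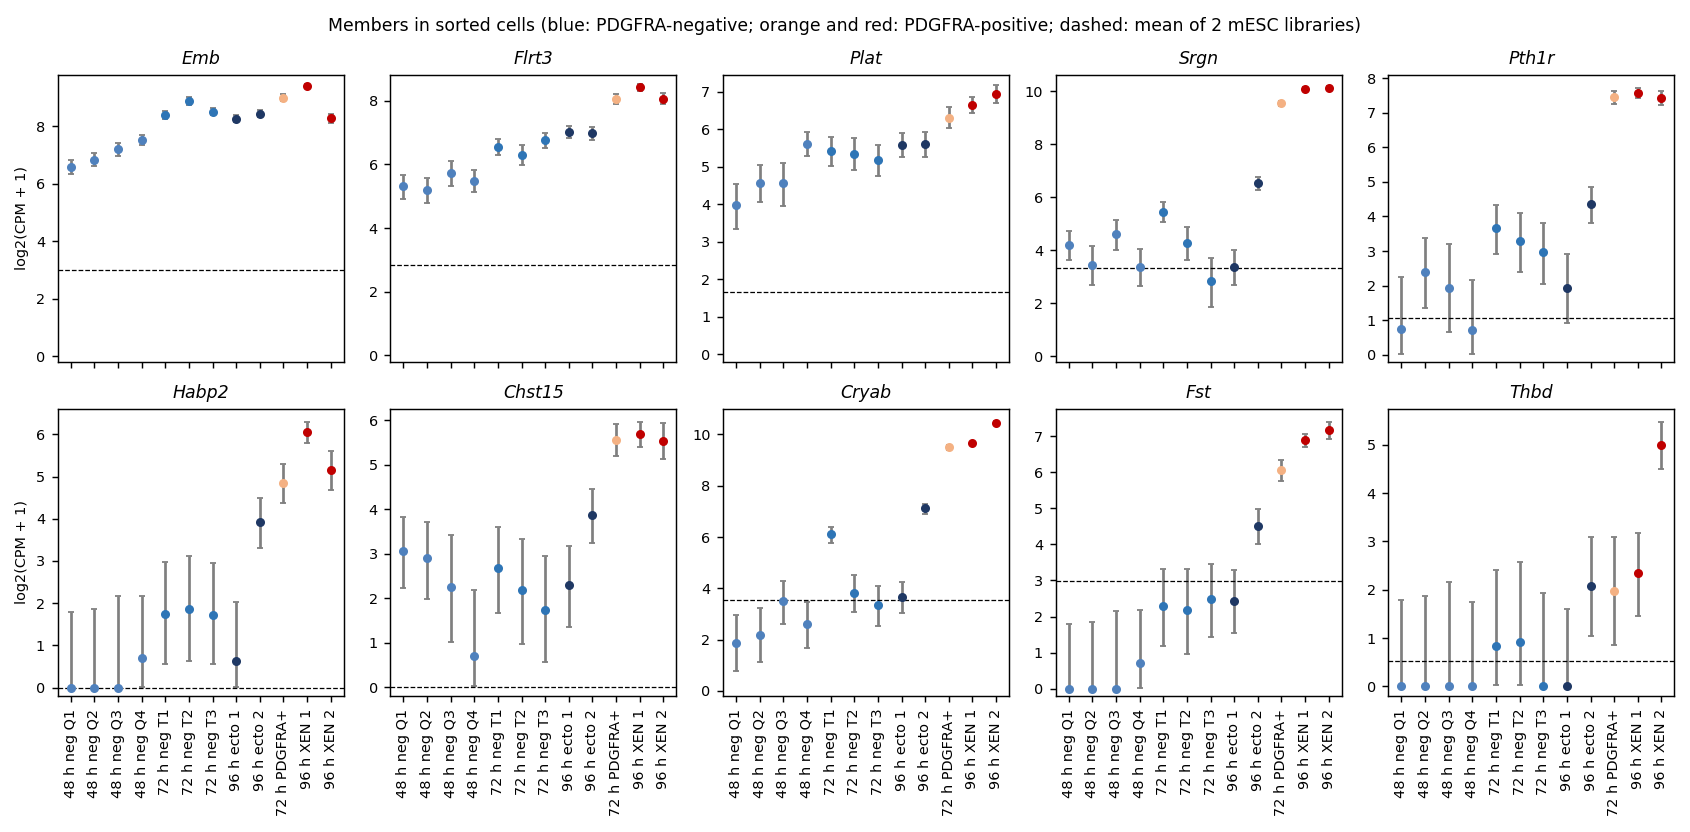
log2(CPM + 1) of each gene in the 12 libraries of sorted cells, PDGFRA-negative in blue, the 72 h PDGFRA+/CD24- library in orange and the 96 h XEN-like libraries in red; the dashed line is the mean of the 2 mESC libraries. Emb, Flrt3 and Plat stand far above the dashed line in every blue 72 h and 96 h library, while Srgn, Cryab, Pth1r and Fst are highest in orange and red, and among the blue libraries in ectoderm-like replicate 2.

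At 72 h the PDGFRA gate divided the members. Of the 9 members with at least 20 UMIs, 9 had a ratio of the PDGFRA+/CD24- library to the 3 PDGFRA-negative terciles whose interval lay above 1. This compares with 17.4% of the 8721 genes compared, whose median log2 ratio was -0.16. The XEN-like cells at 96 h, by which the members were chosen, were sorted with the same gate. A higher level in PDGFRA+ cells was therefore likely from the choice, and the count is a description. Thbd, with 4 against 2 UMIs, could not be placed. Srgn stood at 42.7, 18.5 and 6.14 CPM in terciles 1 to 3 and at 745 in PDGFRA+ cells, a ratio of 33.04 (26.4 to 41.8). Cryab stood at 67.6, 13.2 and 9.21 and at 720, a ratio of 23.5 (19.4 to 28.8). Both were thus far higher in the PDGFRA+ library than in any tercile, and among the terciles highest in the CD24-low one. Pth1r had a ratio of 18.9 (13.2 to 27.96), Fst of 16.2 (9.33 to 30.2), Chst15 of 12.3 (6.83 to 23.8) and Habp2 of 11.6 (5.49 to 27.2). The intervals of these 4 and of Cryab overlap that of Pdgfra itself, at 14.4 (9.71 to 22.1), and that of Srgn lies above it.

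Flrt3, Plat and Emb differed from those 6 at the same gate. Flrt3 was at 93.2, 77.6 and 107 CPM in the terciles and 264 in PDGFRA+ cells, a ratio of 2.82 (2.43 to 3.28). Plat was at 41.95, 39.7 and 35.3 against 78.6, a ratio of 2.02 (1.56 to 2.61). Emb was at 338, 469 and 363 against 511, a ratio of 1.32 (1.205 to 1.45). The intervals of these 3 do not reach those of the other 6, so the PDGFRA+ excess was smaller for them by more than the counting error. In the PDGFRA-negative terciles together, Emb was 55.4-fold, Plat 17.8-fold, Flrt3 15.3-fold, Pth1r 8.37-fold, Cryab 2.86-fold and Srgn 2.46-fold its mESC level, each with an interval above 1, and Fst, at 0.577, spanned 1. Habp2 and Chst15, at 0 in mESCs, were at least 3.69-fold and 5.74-fold higher. For Srgn and Cryab, tercile 1 lay above tercile 3, and Pdgfra RNA moved with them, at 15.5, 6.18 and 2.30 CPM in terciles 1 to 3; its part in the result was not tested. Set against tercile 3 alone, the PDGFRA+ ratio became 121 for Srgn and 78.2 for Cryab.

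**Figure D3:**
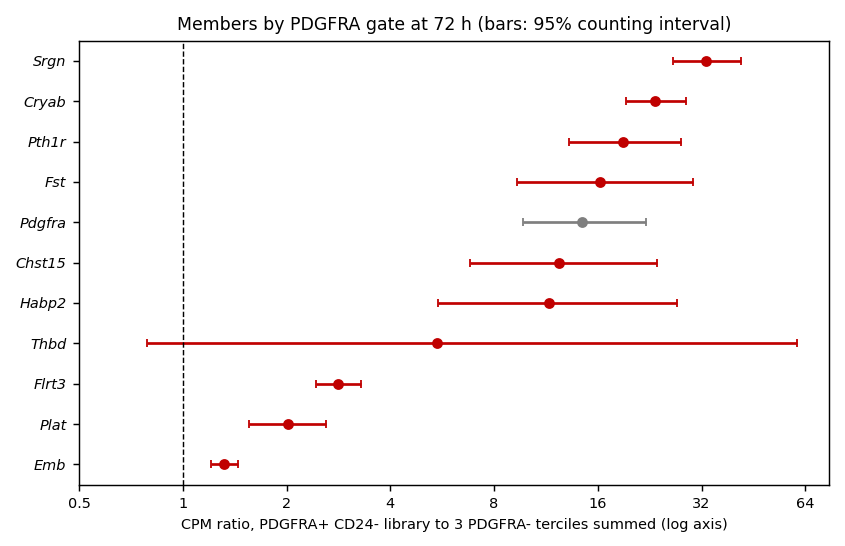
Ratio of CPM in PDGFRA+/CD24- cells to that in the 3 PDGFRA-negative terciles at 72 h, on a log axis with exact 95% counting intervals; Pdgfra is in grey. Srgn is highest at 33.04, Emb lowest at 1.32, and Thbd alone has an interval that spans 1.

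From 72 h to 96 h, 3 members were higher by CPM within the PDGFRA+ gate in each sorted XEN-like replicate. Against the 72 h PDGFRA+/CD24- library, both XEN-like libraries together held 1.93 times the Fst, 1.46 times the Srgn and 1.41 times the Cryab, and the interval lay above 1 for each replicate alone as well, a comparison chosen after seeing the data. For Cryab the replicates gave 1.12 and 1.93. The TMM factors of replicate 1 and of the 72 h library were 1.019 and 0.915, which differ by about as much as that 1.12. No TMM-scaled ratio was run here, so the Cryab excess in replicate 1 depends on scaling by total UMIs. Plat (1.37), Flrt3 (1.199), Habp2 (1.94) and Thbd (4.66) were above 1 with both libraries together, which made 7 of 10 members against 14.9% of 8039 genes, but each spanned 1 in 1 replicate; Thbd was 1.38 in replicate 1 and 10.5 in replicate 2. Pth1r (1.06) and Chst15 (1.05) spanned 1 throughout, so no change in them was detectable at this depth. Emb had a ratio of 1.06 that averaged replicates on opposite sides, 1.32 in replicate 1 and 0.605 in replicate 2, each beyond counting error.

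Sorted cells at 96 h give the contrast that named the genes. The label XEN was checked first. Of the 15 primitive and parietal endoderm markers, all tested, 14 rose in XEN-like over ectoderm-like cells in edgeR's quasi-likelihood fit (6.99% of 8947 genes rose), and all 11 ectoderm markers fell. These lists include Pdgfra and Cd24a, the genes of the sorting markers. Of 12 pluripotency markers, all tested, 5 were higher and 1 lower in XEN-like cells. Of 11 visceral endoderm markers 5 were tested and 1, Cubn, rose. Endothelial and blood markers, which matter because Thbd and Srgn are best known from those cells, summed to 9.14 and 3.65 CPM in the XEN-like libraries, with Tie1, Emcn and Ptprc at 0 in both. The 2 ectoderm-like libraries did not match. Replicate 2 carried 1978 CPM of summed endoderm markers and 36.8 CPM of Pdgfra, replicate 1 617 and 3.33. The members moved the same way. In replicate 2 relative to replicate 1, Habp2 was 25.6-fold, Cryab 11.8-fold, Srgn 9.64-fold, Pth1r 6.97-fold, Fst 4.94-fold and Chst15 3.49-fold higher, and Emb 1.13-fold (1.00 to 1.28), 7 of 9 members with an interval above 1 against 10.9% of 8021 genes. Plat (1.01) and Flrt3 (0.968) did not. What part XEN-like RNA in that library had in the values was not tested, so they are given with and without it.

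Srgn stood at 9.45 and 91.1 CPM in the ectoderm-like and 1078 and 1116 in the XEN-like libraries, and Cryab at 11.7 and 138 against 804 and 1390. Pth1r stood at 2.78 and 19.4 against 189 and 171, and Fst at 4.45 and 21.97 against 117 and 142. For these 4 the XEN-like libraries were far above both ectoderm-like ones. Habp2 stood at 0.556 and 14.2 against 65.01 and 34.6 CPM, and Chst15 at 3.89 and 13.6 against 50.3 and 45.6. Thbd stood at 0 and 3.23 against 4.06 and 30.99, a spread of 7.63-fold between the XEN-like libraries alone. Plat stood at 47.2 and 47.8 against 99.5 and 122, and Flrt3 at 129 and 125 against 344 and 267, close within the ectoderm-like pair. Emb stood at 306 and 346 against 673 and 309, so the groups overlapped.

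The fitted log2 fold changes of XEN-like over ectoderm-like cells were 4.54 (SE 0.71) for Srgn, 4.14 (0.61) for Pth1r, 3.99 (0.91) for Cryab, 3.42 (0.60) for Fst, 2.88 (0.76) for Habp2, 2.57 (0.51) for Chst15, 1.36 (0.26) for Flrt3, 1.33 (0.30) for Plat and 0.67 (0.33) for Emb. Of the 9 members fitted, 8 passed an adjusted p of 0.05, and Emb did not; since the contrast chose them, this is no evidence of its own. The call did not stand evenly: without ectoderm-like replicate 1 only 3 passed, Fst, Pth1r and Srgn. Against replicate 1 alone, the ratio was 116 for Srgn, 86.9 for Cryab, 65.8 for Pth1r, 28.4 for Fst, 12.5 for Chst15, 2.44 for Flrt3, 2.28 for Plat and 1.78 for Emb. For Emb the data go against the label XEN-specific, and for Plat and Flrt3 the excess was about as small as at 72 h. Relative to mESCs all 9 were higher in XEN-like cells, where 12.3% of all genes were, with a median fitted log2 fold change of 6.51 against -0.06 over all genes.

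Ectoderm-like cells against mESCs is the contrast without XEN-like cells, though its ectoderm-like libraries also stood in the one that chose the genes. The filter on low counts ran over all 6 libraries of the fit. Chst15, Habp2 and Pth1r, low in mESCs and in ectoderm-like replicate 1, entered through the XEN-like libraries, so their values are a description. With only the 4 libraries compared, 6 members were tested and 3 rose. In the fit of 6 libraries, 6 of 9 members rose (edgeR quasi-likelihood test, Benjamini-Hochberg adjusted p under 0.05), against 9.85% of 8947 genes. Chst15, Habp2 and Pth1r were among those 6. Emb rose from 6.98 ± 2.44 to 326 ± 28.7 CPM (SD, n = 2 each), a log2 fold change of 5.22 (SE 0.42; edgeR adjusted p = 1.9e-05). Flrt3 rose from 6.11 ± 1.21 to 127 ± 2.94 CPM, by 4.05 (SE 0.32; edgeR adjusted p = 1.7e-05). Plat rose from 2.18 ± 0.0077 to 47.5 ± 0.40 CPM, by 4.10 (SE 0.41; edgeR adjusted p = 6.7e-05). For these 3 every ectoderm-like library was above every mESC library, and the calls held without either ectoderm-like replicate. Chst15 stood at 3.89 and 13.6 CPM in the ectoderm-like libraries, and since it had no UMI in mESCs, its fitted fold depends on the prior count.

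Habp2 stood at 0.556 and 14.2 CPM and Pth1r at 2.78 and 19.4 in the ectoderm-like libraries. The higher value of each came from replicate 2, the library with more endoderm RNA. Srgn (log2 fold change 2.15, SE 0.75, edgeR adjusted p = 0.068), Cryab (2.52, SE 0.97, 0.093) and Fst (0.58, SE 0.67, 0.60) did not pass, and turned to -0.32, -0.24 and -1.01 without that library. A permutation test of single values cannot go below p = 0.333 with 2 against 2, so it was not used.

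**Figure D4:**
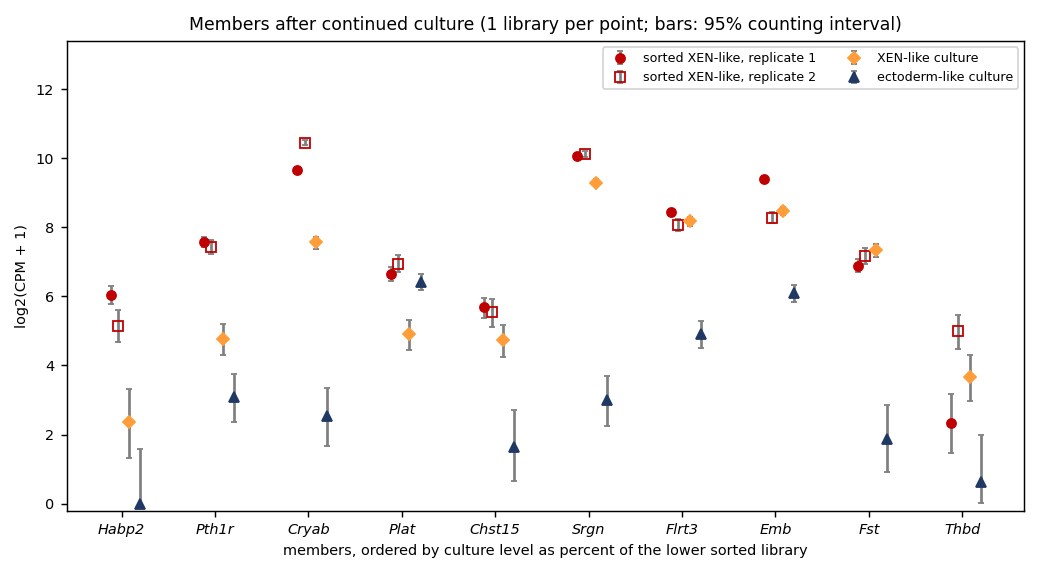
log2(CPM + 1) of each gene in the 2 sorted XEN-like libraries, the XEN-like culture and the ectoderm-like culture, ordered by the culture's percentage of the lower sorted library. Thbd, Fst, Emb and Flrt3 are within or above the sorted pair in the XEN-like culture, Pth1r and Habp2 lie well below it, and Plat alone is higher in the ectoderm-like culture.

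The 2 cultures, each 1 library, show what was kept after the sort. Their sorting marker genes no longer matched the gates: Cd24a was at 421 CPM in XEN-like culture but 18.7 in ectoderm-like culture, and Pdgfra at 34.5 and 23.02, against 144 and 143 in sorted XEN-like cells. The endoderm marker list summed to 10588 CPM in the XEN-like culture, between the 13167 and 7440 of the sorted libraries, and Sparc alone gave 5888 of it. The other markers of the list were split. Dab2 was far lower than in the sorted pair, at 140 against 1263 and 950. Sox7, at 0.69 against 48.2 and 29.2, and Stra6, at 6.90 against 58.4 and 56.5, were far lower too. Pdgfra and Serpinh1 were also below both sorted libraries. Gata4, Sox17, Col4a1 and Col4a2 were, like Sparc, above both in the XEN-like culture, and Gata6, Lama1, Lamb1, Lamc1 and Nid1 lay between them. Its visceral endoderm markers summed to 1087 CPM against 331 and 213, with Ttr at 715 but Cubn at 9.66 against 235 and 74.7, and its endothelial and blood markers to 90.4 against 9.14 and 3.65, from Cdh5 (55.2) and Tek (35.2), with Pecam1, Tie1 and Ptprc at 0. The part of these cells or genes in the values below was not tested.

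In the XEN-like culture, 6 of the 10 members kept at least 50% of the lower sorted XEN-like library, against 84.7% of 7274 genes, 4 lay between 10% and 50%, and 0 were below 10%. Thbd was at 289% of the lower library, Fst at 137%, Emb at 114%, Flrt3 at 108%, Srgn at 57.99% and Chst15 at 56%. Plat was at 29.1%, Cryab at 23.3%, Pth1r at 15.3% and Habp2 at 11.9%. Habp2, with 6 UMIs in the culture, fell below 10% against other references, at 8.31% of the mean of the sorted libraries and 6.37% of replicate 1. Relative to both sorted libraries together, 7 of the 10 members were lower with an interval below 1, against 28.8% of 8993 genes, Fst was higher (1.27, 1.08 to 1.502), and Thbd and Flrt3 spanned 1. The Fst interval spanned 1 with TMM scaling (1.17, 0.989 to 1.38) and against sorted replicate 2 alone (1.13, 0.919 to 1.39), and Flrt3 lay below 1 with TMM scaling (0.834) and against replicate 1 alone (0.837). The fall was deepest for Habp2, from 65.01 and 34.6 to 4.14 CPM (0.0764, 0.0277 to 0.170), Pth1r, from 189 and 171 to 26.2 (0.143, 0.100 to 0.199), and Cryab, from 804 and 1390 to 188 (0.185). Pdgfra, at 0.240, was in the same range. Members with high ratios at the 72 h gate fell on both sides: Srgn and Fst were kept, and Cryab and Pth1r were not. With the sorted XEN-like replicates differing, Emb was at 0.650 of both together and at 1.14 of replicate 2 alone, and Thbd was at 0.856 of both, at 0.378 of replicate 2 and at 2.89 of replicate 1.

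In the ectoderm-like culture 7 of 9 members were below the 2 sorted ectoderm-like libraries together, against 26.3% of 9586 genes, and 1, Plat, was above. Emb stood at 0.206 of the sorted level and Flrt3 at 0.227, and both were as low against sorted replicate 1 alone, at 0.219 and 0.223. The other low ratios rested largely on sorted replicate 2, the library with more endoderm RNA. Srgn stood at 0.147 of both libraries and 0.737 of replicate 1, Fst at 0.213 and 0.602, and Chst15 at 0.550 of replicate 1, each of the latter spanning 1, while Cryab stood at 0.0689 and 0.413, still below 1. Habp2 had 0 UMIs in the culture and 1 in replicate 1. These values against 1 replicate alone were chosen after seeing the data. Plat went from 47.2 and 47.8 to 84.0 CPM, a ratio of 1.77 (1.41 to 2.22), and of 1.78 against replicate 1. Between the cultures, 7 of 8 members were higher in the XEN-like one, against 27.1% of 8942 genes: Srgn 89.8-fold, Fst 60.0-fold, Cryab 38.9-fold, Chst15 11.9-fold, Flrt3 9.95-fold, Emb 5.28-fold and Pth1r 3.50-fold. Thbd, with 17 against 1 UMIs, had a ratio of 21.9. Plat was the exception, at 28.97 CPM against 84.0 in the ectoderm-like one, 0.345 (0.239 to 0.487). Emb and Flrt3, shared by both lineages at 72 h and 96 h, thus stood apart between the cultures.

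**Figure D5:**
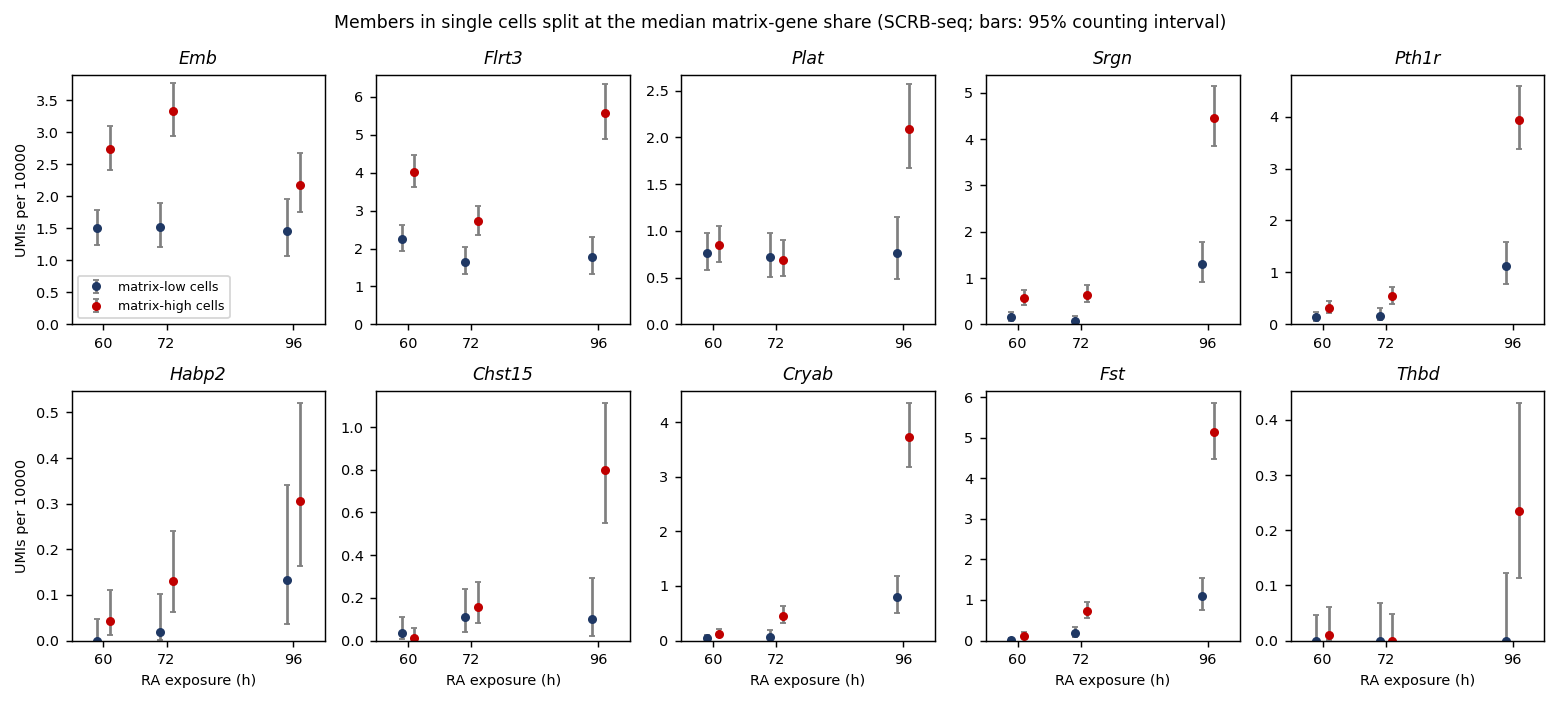
UMIs per 10000 of each gene in SCRB-seq cells of high (red) and low (blue) basement membrane share at 60 h, 72 h and 96 h, 1 plate per time point, with exact 95% counting intervals. At 96 h red lies above blue for all 10 genes, while Plat is level between the colours at 60 h and 72 h.

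Single cells were split at 60 h, 72 h and 96 h by genes outside the members. In 2448 of 3456 wells with more than 2000 UMIs (137 to 335 cells per time point, median depth 3559 to 5069 UMIs; the 384 well names recur in all 9 plates as positions), each of these 3 time points was divided at the median share of UMIs from the basement membrane genes Sparc, Col4a1, Col4a2, Lama1, Lamb1 and Lamc1. This gave 321 matrix-high and 324 matrix-low cells; they are ranges of a score, not cell types. All 10 members had the higher level in matrix-high cells, against 67.6% of 10439 genes. All 10 also had an interval above 1, against 28.2% of these genes. Both percentages cover genes with at least 20 UMIs summed over both arms. Thbd, which had fewer, is counted among the 10 all the same. The genes of the score are also endoderm markers of the list used here. Members chosen as high in XEN-like cells were therefore likely to follow it, and these counts are a description. The ratio was 5.15 for Cryab, 5.04 for Fst, 4.205 for Habp2, 4.12 for Srgn, 3.43 for Pth1r and 3.05 for Chst15, and 1.96 for Flrt3, 1.89 for Emb and 1.39 for Plat. Thbd had 11 UMIs against 0. Flrt3, Emb and Plat thus had the smallest ratios here, as they did at the 72 h gate.

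Plat parted late in single cells. At 60 h its level was 0.847 UMIs per 10000 in matrix-high and 0.763 in matrix-low cells, and at 72 h 0.693 and 0.717, both ratios spanning 1; with cells thinned to 2000 UMIs the 72 h ratio was 0.471 (0.207 to 0.978), below 1. At 96 h it was 2.09 against 0.766, a ratio of 2.73 (1.71 to 4.52). Thinning dropped no cell but took the score anew from the thinned counts. Cells tied at the median counted as low, which gave 239 matrix-high and 406 matrix-low cells. Over the 3 time points the thinned ratio was 1.23 for Plat, which spanned 1, 4.57 for Cryab and 3.99 for Srgn. Srgn then had a UMI in 23.4% against 7.14% of cells, and unthinned in 30.5% against 11.1%. At 60 h and 72 h alone, a restriction chosen after seeing the data, 7 of the 10 kept an interval above 1. Plat, Chst15 and Thbd did not. Habp2, 1 of the 7, had 14 against 1 UMIs there, fewer than 20 in all. The intervals of pooled SCRB-seq UMIs, here and above, cover counting error and not the spread between cells. For Habp2 the 10 UMIs of matrix-high cells at 72 h came from 3 cells. In SCRB-seq, Emb had a UMI in 0.709% of 282 mESCs and 9.85% of 335 cells at 6 h. At 60 h it had one in 51.3% of 273 cells, and at 96 h in 38.7% of 137 cells. SMART-seq2 gave larger shares, with Emb above 1 normalised RPKM in 32 of 82 mESCs. It was above 1 in 68 of 86 cells at 12 h and 79 of 82 cells at 48 h. The share of cells with Emb thus depended on the method, and the SCRB-seq shares count detected UMIs only.

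Over the 25 bulk libraries, 2 groups of members were close by correlation of log2(CPM + 1), given as a description since the libraries share time points and cells. Plat, Emb and Flrt3 correlated at 0.89 to 0.92 with each other, and Srgn, Pth1r, Habp2 and Cryab at 0.91 to 0.94. Fst, at 0.89 to 0.90, and Thbd, at 0.74 to 0.84, were nearer the second group. The groups were not cleanly apart: Chst15 correlated at 0.92 with Srgn and 0.84 with Flrt3, and Pth1r at 0.80 with Flrt3. Thbd and Emb were least alike, at 0.43. With Pdgfra, r went from 0.71 for Emb to 0.96 for Pth1r. Among 6296 genes the one nearest to each member was Pdgfra for Pth1r (0.96), Gata6 for Chst15 (0.95), Lama1 for Fst (0.94), Cubn for Habp2 (0.94), Pla2g12b for Srgn (0.97), Hs3st1 for Cryab (0.96), Agpat4 for Plat (0.95), Smim1 for Thbd (0.90), Bbip1 for Emb (0.96) and Soat1 for Flrt3 (0.96). The nearest genes of Pth1r, Chst15, Fst and Habp2 were themselves endoderm markers in the lists used here, and those of the other 6 members were not.

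Partners of the members were followed in XEN-like against ectoderm-like cells, where the median log2 fold change of all genes was -0.06. Of 18 plasminogen and clotting genes 8 were tested and 5 rose: Plaur, the urokinase receptor (3.94), F3, tissue factor (3.90), F2, prothrombin (3.81), Anxa2 and its partner S100a10, which bind tissue plasminogen activator at the cell surface (2.39 and 1.46); the median was 1.92. Of 13 activin and follistatin genes 5 were tested and 2 fell, the receptor Acvr2b (-2.31) and Fstl1 (-1.42). None of the 6 tested genes of PTH receptor signalling passed, and the hormone genes Pth and Pthlh were at 0 in both XEN-like libraries. Of 8 tested genes of chondroitin and proteoglycan synthesis, Chst12 (1.80) and Dse (1.47) rose and Chsy1 (-1.70) fell. The lactate transporter Slc16a1 rose (1.52), alone of 3 tested transporters and partners. Among FLRT partners 2 of 4 fell, Fgfr1 (-3.99) and the latrophilin Lphn2 (-2.66). Of 4 small heat shock genes Hspb2, the neighbour of Cryab in the genome (3.24), and Hspb1 (1.41) rose.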

How the data were processed

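Bulk RNA (3′ UMI libraries from total RNA) and SCRB-seq values were deposited as counts of UMIs per gene; per the labels and the methods, the authors aligned reads to RefSeq mRNA of mouse build mm10 with BWA 0.7.4. SMART-seq2 values were deposited by the authors as RPKM, normalised for gene length and depth, from TopHat and Cuffnorm. Samples were grouped by their titles. Bulk libraries held 1063830 to 2459480 UMIs (median 1665380). From the counts, CPM used the total UMIs; 2 genes with 3 unreadable values were dropped. Counts of mESC, ectoderm-like and XEN-like sorted libraries (2 each) were fitted together in edgeR 4.0.16 (R 4.3.3; quasi-likelihood test, TMM, filter on low counts, 8947 genes, Benjamini-Hochberg). The study's methods call the replicates biological, and their log2 values correlated at 0.952, 0.943 and 0.946. Other comparisons used exact Poisson, conditional or Clopper-Pearson intervals at 95% (scipy 1.17.1) over genes with at least 20 UMIs summed over both arms. A fold against 0 UMIs used a floor of 3 counts over the group. Each SMART-seq2 cell was brought to the same total, the median of the mESCs. SCRB-seq wells needed more than 2000 UMIs, and no doublet caller was run on these plates of sorted wells. The scripts were tested on simulated data. The genes described, the marker and partner lists and the tests were chosen with earlier results of these data known. Partner genes named are those with the largest fitted change past the threshold, up to 4 of a list; S100a10, Pth, Pthlh, Ttr, Cdh5, Tek, Sparc, Dab2, Sox7 and Stra6 were named after their values were seen; nearest genes are those with the highest r. Alternatives were DESeq2 1.42.0, its size factors, no filter on low counts, other scalings and libraries left out.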

Additional observations from a re-analysis of the deposited data

Results flagged for a closer look

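Plat and Fst moved in opposite directions in the 2 cultures relative to the sorted cells from which each was grown. Plat, the tissue plasminogen activator gene, stood at 0.269 of the sorted XEN-like level in the XEN-like culture and at 1.77 times the sorted ectoderm-like level in the ectoderm-like culture, below both sorted libraries in the first and above both in the second. Fst, the follistatin gene, stood at 1.27 times the sorted level in the XEN-like culture and at 0.213 of it in the ectoderm-like culture, above both sorted libraries in the first and below both in the second. For Fst neither side is firm: the ratio in the XEN-like culture spanned 1 with TMM scaling (1.17, 0.989 to 1.38) and against sorted XEN-like replicate 2 alone (1.13, 0.919 to 1.39), and that in the ectoderm-like culture was 0.602 (0.155 to 2.09) against sorted ectoderm-like replicate 1 alone, from 5 and 8 UMIs. Each culture is 1 library, so the difference between the cultures was not tested.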

How the results depend on the processing

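With 1 or 2 libraries a group, counting depth limits Thbd, Habp2 and Chst15 most. For XEN-like over ectoderm-like cells, 8 members passed, 6 with DESeq2 and 3 to 9 when 1 library was left out, with 3 without ectoderm-like replicate 1. For XEN-like cells over mESCs 9 passed, and 9 or 10 under each alternative. For ectoderm-like cells over mESCs 6 passed, 4 with DESeq2, 3 when only the 4 libraries compared were fitted, where 6 members were tested, and 4 to 8 when 1 library was left out. With 1 library left out, the ectoderm-like over mESC log2 fold change ranged from -1.01 to 1.42 for Fst, from -0.32 to 3.08 for Srgn and from -0.24 to 4.72 for Cryab, each lowest without ectoderm-like replicate 2, and the Emb ratio of XEN-like culture to sorted cells from 0.524 to 1.14, above 1 without sorted XEN-like replicate 1. Over all genes, XEN-like over ectoderm-like calls were 625 higher and 514 lower, 496 and 283 with DESeq2, 839 and 828 without the filter, and 151 and 145 without ectoderm-like replicate 1, 443 and 224 without replicate 2, 318 and 160 without XEN-like replicate 1 and 342 and 214 without replicate 2. Ectoderm-like over mESC calls were 881 and 830, 558 and 654 with DESeq2, 1337 and 1210 without the filter, 562 and 467 without ectoderm-like replicate 1 and 419 and 457 without replicate 2. XEN-like over mESC calls were 1103 and 939, 735 and 532 without XEN-like replicate 1 and 765 and 635 without replicate 2. The same-numbered libraries did not deviate together in every pair (r = 0.308, 0.095 and 0.021), so replicate numbers were not used as pairs; a fit with the replicate block passed 8, 9 and 7 members (837 and 678, 1289 and 1226, 1093 and 1074 genes). Members kept in the XEN-like culture numbered 6, 5 with TMM scaling or without sorted XEN-like replicate 1, and 6 without replicate 2. Habp2 fell below 10% without replicate 2 and against the mean of the sorted libraries. Members higher in matrix-high cells numbered 10 under each alternative, and those above mESCs by 48 h 4 or 5. For quartile 4 over quartile 1 no alternative was run. With 1 mESC library left out, the Cryab ratio of quartiles to mESCs ranged from 0.262 to 2.32. The causes of these changes were not tested.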

Other observations

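Some partners of the members, chosen after their values were seen, had levels in the cultures that were far from those of the sorted cells. Pthlh, the gene of the peptide that Pth1r binds, was at 22.5 CPM in the ectoderm-like culture and at 0 in both sorted XEN-like libraries and in the XEN-like culture. Plau, the urokinase gene and the other plasminogen activator, was at 18.2 CPM in the ectoderm-like culture, where Plat was also high, and at 0.689 CPM or less in the sorted XEN-like libraries and their culture. Unc5b, a receptor that FLRT proteins bind, was at 40.7 CPM in the XEN-like culture against 1.02 and 2.73 in sorted XEN-like cells. Each culture is 1 library, and no test was made.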
